A study of Sus scrofa with 10 samples.

Results

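Nuclei sorted from the entorhinal cortex of a pig fetus at embryonic day 70 (E70) were set against whole cells dissociated from the same region and stage. All cells of the nuclei library E70_nc and of the whole-cell libraries E70_1, E70_2 and E70_3 were taken if HBB, the beta globin gene, held under 5% of their UMIs (unique molecular identifiers, 1 per captured RNA molecule), and their UMIs were summed per library. These 4 libraries held 4909 such cells, and the whole series held 28229 cells before this filter. The study profiled the medial entorhinal cortex of crossbred pigs by 10X Chromium single-cell RNA sequencing across fetal stages and in the adult, with nuclei added at E70 and in the adult. For the whole-cell libraries, fresh tissue was digested with papain, and the labels give 2 pooled brains for E70_1 and 1 each for E70_2 and E70_3. For E70_nc, tissue of 1 brain was snap-frozen, broken in a douncer and sorted for nuclei stained with 7-AAD, a DNA dye. E70_nc was sequenced in pool 5 and the whole-cell libraries in pools 3, 2 and 1, so fraction (nuclei or cells), brain, freezing, sorting and pool cannot be told apart. There was 1 nuclei library. Its spread was taken to be that of the 3 whole-cell libraries, whose separate brains make the only replicates.

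The libraries differed in depth. E70_1, E70_2 and E70_3 kept 456, 586 and 3009 cells with 5990119, 6682505 and 26706367 UMIs, and E70_nc kept 858 nuclei with 3089188 UMIs. The median was 9339, 9404.5 and 6779 UMIs per whole cell and 2616 per nucleus. With each cell thinned to 1000 UMIs the median number of genes was 797, 780, 753 and 756 for E70_1, E70_2, E70_3 and E70_nc, whereas unthinned it was 4180, 4009, 3022 and 1584. The thinned values leave out 25 nuclei below that depth. E70_nc shared 0, 1 and 2 cell barcodes with E70_1, E70_2 and E70_3. Levels are given as CPM (UMIs per 1000000 UMIs of the library), and 1 UMI in E70_nc was worth 0.324 CPM.

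The nucleus of a cell holds newly made transcripts, many of which still carry introns, whereas the cytoplasm holds spliced messages, ribosomes and mitochondria with their own RNA. Transcripts of long genes take longer to make and carry most of their bases in introns. Counting here included introns, so that unspliced transcripts contributed to the values of both fractions. In summed libraries, fewer cells of a type and less RNA per cell cannot be told apart.

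Clusters made within each library were named from cell type markers, with thresholds set after the data were seen. Excitatory neuron-like cells made up 26.8%, 53.4% and 45.7% of E70_1, E70_2 and E70_3 and 59.9% of E70_nc (exact binomial 95% interval 56.5% to 63.2%). Interneuron-like cells were 5.48%, 18.4% and 10.4% of the whole-cell libraries and 20.3% of the nuclei (17.6% to 23.1%). Cells like astrocytes and radial glia were 4.61%, 4.95% and 9.27% of cells and 14.1% of nuclei (11.8% to 16.6%), and endothelial-like cells 2.41%, 2.22% and 2.16% of cells and 1.98% of nuclei (1.16% to 3.15%). Microglia-like cells were 4.39%, 3.24% and 3.32% of whole cells. In E70_nc, 0 of 858 nuclei fell in such a cluster (exact binomial 95% interval 0% to 0.429%). Naming was by cluster, so microglial nuclei placed in another cluster are not covered by that interval. Unnamed clusters held 49.3%, 14.0% and 15.9% of whole cells and 3.73% of nuclei, so the shares depend on how much of each library could be named. In E70_1, 1 unnamed cluster of 117 cells fell just short of the threshold for excitatory neuron-like cells (mean log2 ratio of the markers 0.469). Doublets were neither called nor removed.

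Of 13146 genes tested, 496 were higher in nuclei than in all 3 whole-cell libraries and 1525 were lower in nuclei, at an adjusted p under 0.05 in edgeR's quasi-likelihood test. These calls were 3.77% of the genes tested on the higher side and 11.6% on the lower side. Without E70_1 the counts were 184 higher and 1403 lower, without E70_2 they were 41 and 683, and without E70_3 they were 3445 and 4111. The count of calls therefore rested on which whole-cell libraries set the spread, and no gene called with all libraries was called the other way in any of the 3 fits. In simulated counts with known changes in 50 genes of each size, the same test recovered 0% of 2-fold, 22% of 4-fold, 60% of 8-fold and 92% of 16-fold changes. A gene that was not called may therefore still differ severalfold. Only the 50 genes of each size were changed in the simulation, raised and lowered in equal number. The recovery rates need not hold where many more genes differ.

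The rule of being outside the range of the whole-cell libraries, without a test, took in more genes. E70_nc lay above all 3 whole-cell libraries in 4577 genes (34.8%) and below all 3 in 5238 genes (39.8%). With the exact Poisson 95% interval of E70_nc also required to be apart from those of all 3, 2944 genes (22.4%) were above and 3341 (25.4%) below. These intervals cover counting error only. The median log2 fold change over all genes tested was -0.31 after TMM scaling and -0.18 on total UMIs, and fold changes of gene groups are to be read against that shift.

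The 12 called genes that stood furthest above the nearest whole-cell library, among those with a mean level of at least 20 CPM, were led by PPWD1, a cyclophilin-type protein found with the spliceosome. PPWD1 (chromosome 16, 44080617 to 44113064 on Sscrofa11.1) measured 10.3, 11.8 and 14.1 CPM in E70_1, E70_2 and E70_3 and 273 CPM in nuclei. That was 19.4-fold over the nearest library, with a log2 fold change of 4.35 ± 0.32 (SE; edgeR adjusted p = 0.0258). GTSF1, known for its part in transposon silencing in germ cells, measured 8.68, 8.98 and 5.39 CPM in cells and 106 CPM in nuclei, 11.8-fold over the nearest library. TRPS1, a GATA-type zinc finger transcription factor on chromosome 4 (22905627 to 23162862), measured 94.0, 94.3 and 118 CPM in cells and 1328 CPM in nuclei. Its log2 fold change was 3.57 ± 0.35 (SE; edgeR adjusted p = 0.0258).

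Several of these 12 genes act at the neuronal surface. CDH9, a classical cadherin, measured 23.7, 23.0 and 45.2 CPM in cells and 383 CPM in nuclei. The ephrin receptor gene EPHA7 measured 54.4, 62.6 and 65.1 CPM against 535 CPM. LRFN5, a synaptic adhesion molecule, measured 69.8, 53.3 and 101 CPM against 823 CPM. In each of these the whole-cell values differed by less than 2-fold, and the nuclei stood over 8-fold above the highest of them. KCNC2, a voltage-gated potassium channel of fast-spiking interneurons, measured 73.6, 73.2 and 70.7 CPM in cells and 544 CPM in nuclei (log2 fold change 2.78 ± 0.29, SE). NRG3, a neuregulin whose gene spans 1088 kb, measured 23.4, 18.7 and 39.2 CPM against 285 CPM.

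The other 4 were ARHGAP20, a GTPase-activating protein, GALNT3, an enzyme that starts O-linked sugar chains in the Golgi, DYDC1, and DCN, a proteoglycan of the extracellular matrix. They were 9.23-fold, 7.64-fold, 7.46-fold and 8.15-fold over the nearest whole-cell library. DCN, a marker of fibroblasts, measured 3.67, 7.03 and 8.54 CPM in cells and 69.6 CPM in nuclei (log2 fold change 3.27 ± 0.53, SE; edgeR adjusted p = 0.0280). Of its 215 UMIs in nuclei, 200 lay in excitatory neuron-like nuclei, where it measured 89.8 CPM. Of 10 mural and fibroblast markers tested, E70_nc lay below all 3 whole-cell libraries in 6, COL1A1, COL1A2 and COL3A1 among them, and above in 3. All 12 genes kept their call with any of the whole-cell libraries left out. They were chosen by their distance from all 3 of these libraries, so this is no independent support.

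The 12 genes that stood furthest below the nearest whole-cell library included 2 ribosomal proteins and genes of several other functions. CKB, the brain creatine kinase, measured 455, 372 and 299 CPM in whole cells and had 1 UMI in nuclei. The ratio to the nearest library was 922, with a counting interval of 166 to 36423. RPL28, a protein of the large ribosomal subunit, measured 685, 815 and 942 CPM in cells and 3.24 CPM in nuclei (log2 fold change -8.10 ± 0.73, SE; edgeR adjusted p = 0.0258). RPLP1, another ribosomal protein, measured 1934, 2576 and 3672 CPM against 9.71 CPM. FTL, the light chain of the iron store ferritin, measured 1250.4, 1388 and 1848 CPM against 9.06 CPM, 138-fold below the nearest library (counting interval 95.5 to 208). Whole-cell and nuclear values of these genes were more than 100-fold apart.

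The rest of the 12 spanned several functions. Translation was represented by EIF3G, a subunit of an initiation factor, which had 0 UMIs in nuclei against 145, 185 and 197 CPM in cells and was at least 149.7-fold lower, with nuclei set to a floor of 3 UMIs. The respiratory chain was represented by COX4I1, at 309.7, 373 and 528 CPM in cells and 2.27 CPM in nuclei. ELOB, a subunit of elongin, had 1 UMI in nuclei against 199.5, 247 and 348 CPM, EDF1 had 1 UMI against 119, 145 and 132 CPM, and the cytokine gene MIF had 2 UMIs against 169.6, 223 and 404 CPM. ELOB and MIF are short genes, of 4.09 kb and 0.761 kb. Secreted proteins were represented by MDK, the growth factor midkine, with 3 UMIs in nuclei against 127, 164 and 194 CPM, and by LGALS1, a galectin, with 0 UMIs against 112, 209.8 and 226 CPM. The histone gene HIST1H2AB had 0 UMIs in nuclei against 163, 180.0 and 500.3 CPM, at least 168-fold lower at the same floor, and shares sequence with other histone genes, so its reads may have been split. All 12 kept their call with any of the whole-cell libraries left out, which is no independent support, since they too were chosen by that distance.

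**Figure D1:**
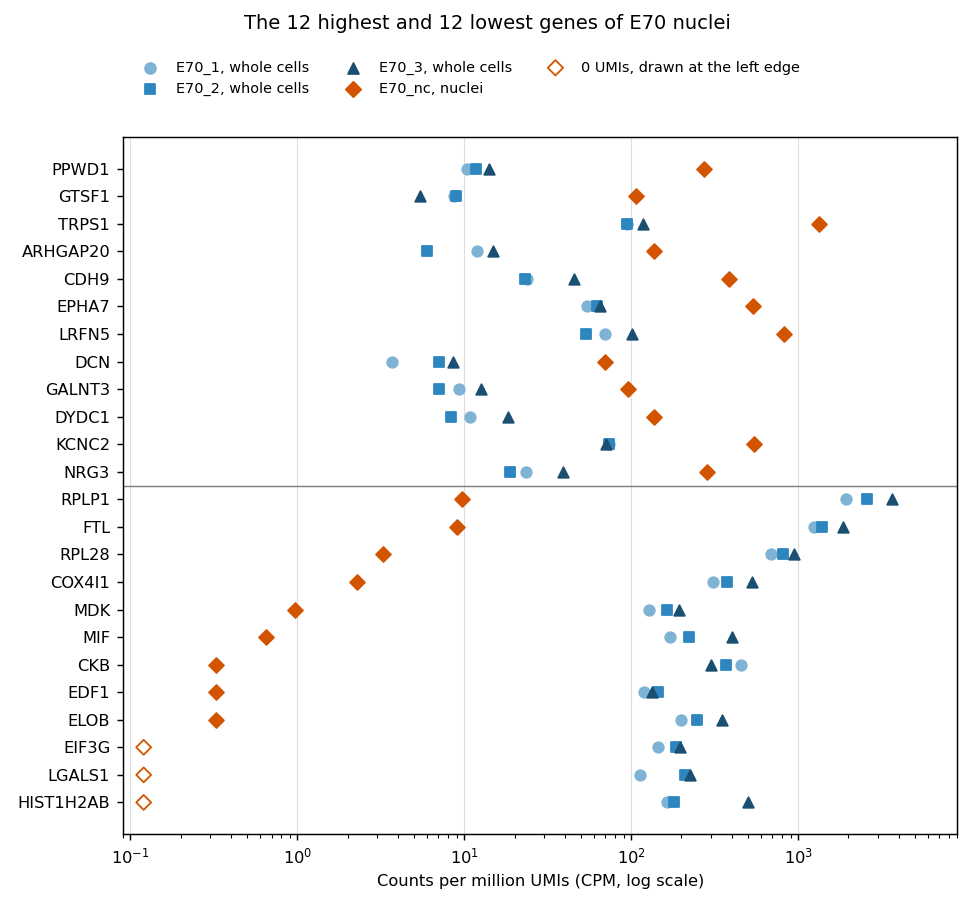
Level of the 12 highest and 12 lowest called genes in each library, in CPM on a log axis. Blue symbols mark the 3 whole-cell libraries and orange diamonds the nuclei, with open diamonds at the left edge for genes without a UMI in nuclei. PPWD1 lies at 273 CPM in nuclei and at no more than 14.1 CPM in cells, while RPL28 lies at 3.24 CPM in nuclei and at no less than 685 CPM in cells.

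Transcripts of the mitochondrial genome, which are made and kept inside mitochondria, were, among the lists of gene functions, the one whose share of UMIs differed most between cells and nuclei. The 13 mitochondrially encoded subunits held 0.868%, 0.918% and 1.56% of UMIs in E70_1, E70_2 and E70_3 (mean 1.12% ± 0.39, SD, n = 3) and 0.0633% in nuclei, 17.6-fold less. E70_nc lay below all 3 whole-cell libraries for all 13 genes, and 12 were called lower. The complex I gene ND2 measured 420.0, 471 and 1114 CPM in cells and 8.09 CPM in nuclei (log2 fold change -6.50 ± 1.07, SE; edgeR adjusted p = 0.0281). ATP6, a subunit of ATP synthase, measured 1952, 2031 and 3255 CPM against 95.8 CPM. The uncalled gene, COX3 of complex IV, measured 1067, 1088 and 1852 CPM against 200.1 CPM (edgeR adjusted p = 0.0523). Without E70_2, 6 of the 13 were called lower.

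Genes of the translation machinery were lower in nuclei, with wide differences among them. Of 58 cytosolic ribosomal protein genes tested, 30 were called lower and 0 higher, with a median log2 fold change of -3.24. The 64 such genes in the count matrices held 4.87%, 6.23% and 8.75% of UMIs in cells and 1.93% in nuclei. RPS20 measured 1777, 2199.5 and 3533 CPM in cells and 77.7 CPM in nuclei, and RPL7A measured 902, 1296 and 1633 CPM against 8.74 CPM. By contrast, RPL34 measured 1624, 1914 and 2734 CPM against 1280.3 CPM (log2 fold change -0.84 ± 0.62, SE; edgeR adjusted p = 0.385), and RPS27A measured 1673, 2186 and 3033 CPM against 1124 CPM. The last 2 genes were not called, although they code for parts of the same particle. Ribosomal protein genes have many processed copies in the genome, so reads of single members may have been split.

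Translation factors, the soluble proteins that start and extend protein synthesis, moved the same way. Of 16 tested, 8 were called lower and 0 higher, and E70_nc lay below all 3 whole-cell libraries in 15. TPT1, a translationally controlled protein, measured 1009.8, 1132 and 2681 CPM in cells and 36.3 CPM in nuclei (log2 fold change -5.60 ± 1.07, SE; edgeR adjusted p = 0.0356). The elongation factor gene EEF1A1 measured 2724, 3323 and 3275 CPM against 622 CPM (edgeR adjusted p = 0.0687). With 1 whole-cell library left out, 16 to 40 ribosomal protein genes and 4 to 14 translation factors were called lower.

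Respiratory chain subunits encoded in the nucleus were depleted as were those encoded in mitochondria. Of 70 tested, 38 were called lower and 0 higher, with a median log2 fold change of -3.24. The 75 such genes in the count matrices held 0.807%, 0.971% and 1.38% of UMIs in cells and 0.247% in nuclei. NDUFS8, a subunit of complex I, measured 83.3, 99.1 and 91.2 CPM in cells and had 1 UMI in nuclei, a ratio of 257 with a counting interval of 46.2 to 10164. COX7C of complex IV, which was not called, measured 305, 264 and 492 CPM against 144 CPM.

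Cytoskeletal and secretory pathway genes followed. Actin and tubulin genes and their partners held 1.86%, 2.56% and 3.48% of UMIs in cells and 0.481% in nuclei, and of 22 tested 8 were called lower and 0 higher. TUBB2B, a beta tubulin of young neurons, measured 2574, 3668 and 2999 CPM in cells and 90.0 CPM in nuclei (log2 fold change -5.24 ± 0.83, SE; edgeR adjusted p = 0.0278). CFL1, the actin-severing protein cofilin, measured 642, 823 and 1158 CPM against 17.5 CPM. TMSB10, a thymosin that binds actin monomers, measured 2989, 4416 and 5711 CPM against 487 CPM and was not called. Of 16 chaperones of the endoplasmic reticulum tested, 8 were called lower and 0 higher. HSPA5, the chaperone BiP, measured 545, 586 and 287 CPM in cells and 46.6 CPM in nuclei, PPIB measured 106, 127 and 205 CPM and had 1 UMI in nuclei, and CANX measured 131, 141 and 242 CPM against 81.3 CPM without a call. With 1 whole-cell library left out, 31 to 57 respiratory chain, 7 to 16 cytoskeletal and 5 to 14 chaperone genes were called lower.

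**Figure D2:**
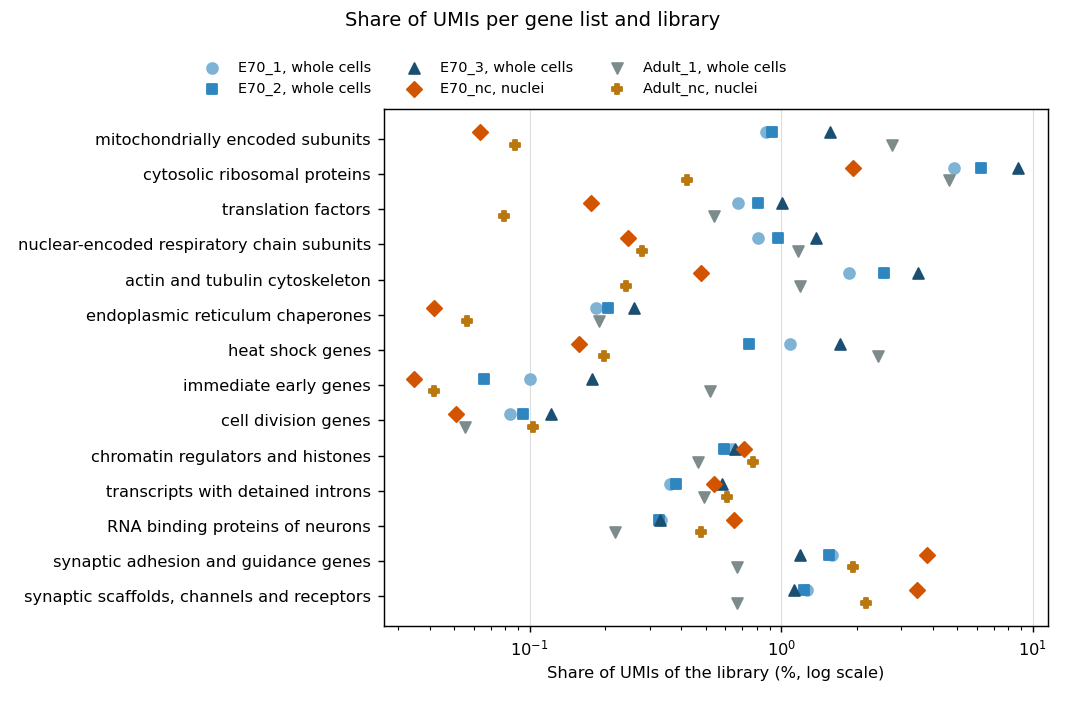
Share of each library's UMIs held by each gene list, in percent on a log axis, for the 3 E70 whole-cell libraries (blue), the E70 nuclei (orange diamonds) and the adult pair (triangles pointing down for cells, crosses for nuclei). Mitochondrially encoded subunits lie at 0.0633% in E70 nuclei against 0.868% or more in E70 whole cells, and synaptic adhesion genes at 3.78% against 1.59% or less.

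Heat shock and immediate early genes, both of which are induced within minutes in cells under stress or activity, were lower in nuclei and varied among the whole-cell libraries. The 21 heat shock genes tested held 1.08%, 0.741% and 1.71% of UMIs in E70_1, E70_2 and E70_3 and 0.157% in nuclei, 7.51-fold less than the mean of cells, and 9 were called lower with 0 higher. HSP70.2, an inducible chaperone with close copies, measured 4085, 1483 and 4388 CPM in cells and 14.6 CPM in nuclei (log2 fold change -7.94 ± 1.26, SE; edgeR adjusted p = 0.0279). Its partner DNAJB1 measured 696, 309 and 852 CPM against 3.88 CPM. HSP90AA1 measured 1113, 1003 and 2306 CPM against 216 CPM and was not called. E70_2 was the lowest whole-cell library for the inducible genes HSP70.2 and DNAJB1, and E70_nc was lower still.

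Of 20 immediate early genes tested, 11 were called lower and 0 higher. The 30 members of the list in the count matrices held 0.100%, 0.0657% and 0.178% of UMIs in cells and 0.0346% in nuclei. FOS, a transcription factor induced by activity, measured 175, 74.7 and 675 CPM in cells and had 3 UMIs in nuclei, a ratio of 76.9 to the nearest library with a counting interval of 26.3 to 373. It was not called (edgeR adjusted p = 0.0604). ZFP36, which destabilises messages, measured 103, 105 and 119.5 CPM against 4.86 CPM and was called (log2 fold change -4.62 ± 0.44, SE). EGR1 measured 96.8, 32.0 and 119 CPM against 22.3 CPM without a call. One member lay on the other side, the kinase gene SGK1, at 120.2, 119 and 94.7 CPM in cells and 235 CPM in nuclei (edgeR adjusted p = 0.107). In excitatory-like cells alone the log2 ratio of the list's share, nuclei over whole cells, was -0.93, against -1.72 over all cells. With 1 whole-cell library left out, 8 to 15 immediate early and 4 to 17 heat shock genes were called lower.

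Genes of the synapse and of the neuronal surface were the lists whose share of UMIs was furthest above that of whole cells. Synaptic scaffolds, channels and receptors held 1.26%, 1.23% and 1.13% of UMIs in E70_1, E70_2 and E70_3 and 3.46% in nuclei. Of 68 tested, 22 were called higher and 0 lower, and E70_nc lay above all 3 whole-cell libraries in 61. The median log2 fold change was 1.30, against -0.31 over all genes. GRM5, a metabotropic glutamate receptor, measured 286, 310.2 and 394 CPM in cells and 1997 CPM in nuclei (log2 fold change 2.46 ± 0.41, SE; edgeR adjusted p = 0.0281). GRIA4, an AMPA receptor subunit, measured 118, 117 and 206 CPM against 1258 CPM, and GRM7, a presynaptic glutamate receptor, measured 121, 161 and 179 CPM against 1268 CPM. DLG2, a postsynaptic scaffold, measured 449.7, 504 and 558 CPM against 1914 CPM (edgeR adjusted p = 0.0484). CACNA2D1, a calcium channel subunit, measured 701, 622 and 429 CPM against 1075 CPM and was not called. The nuclei lay above all 3 whole-cell values in each of these 5 genes, as they did in 34.8% of all genes tested. A call also requires this, so for the called genes it adds nothing.

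Adhesion and guidance genes of the neuronal surface held 1.59%, 1.55% and 1.18% of UMIs in cells and 3.78% in nuclei. Of 67 tested, 16 were called higher and 0 lower, and E70_nc lay above all 3 whole-cell libraries in 56. EPHA5, an ephrin receptor, measured 449.6, 640.0 and 479.9 CPM in cells and 2414 CPM in nuclei (log2 fold change 2.06 ± 0.46, SE; edgeR adjusted p = 0.0469). LSAMP, an adhesion molecule, measured 532, 326 and 833 CPM against 2086 CPM (edgeR adjusted p = 0.104). It was not called, although the nuclei lay above all 3 cell values. Without E70_1 7 genes of each of these lists were called higher, without E70_2 3 adhesion genes and 1 scaffold gene, and without E70_3 46 and 54.

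Neuronal RNA binding proteins were mixed. They held 0.333%, 0.326% and 0.331% of UMIs in cells and 0.647% in nuclei, and of 19 tested 2 were called higher and 0 lower. KHDRBS2, a splicing regulator, measured 351, 370.4 and 219 CPM in cells and 1566 CPM in nuclei (log2 fold change 2.19 ± 0.45, SE; edgeR adjusted p = 0.0404), and CELF5 measured 28.0, 26.3 and 40.4 CPM against 154 CPM. MSI2, a translational regulator of progenitors with a gene of 438 kb, lay on the other side at 621, 486 and 405 CPM in cells and 223 CPM in nuclei (edgeR adjusted p = 0.111). Both calls were lost without E70_1 and without E70_2, and 11 genes were called higher without E70_3.

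Lists of nuclear processes held few calls. Transcripts with detained introns, which are known to wait in the nucleus before splicing is finished, held 0.360%, 0.381% and 0.582% of UMIs in cells and 0.538% in nuclei, and of 34 tested 2 were called higher (5.88%) and 3 lower (8.82%), near the 3.77% and 11.6% of all genes. Without E70_3, 15 were called higher and 6 lower, and without E70_1 or E70_2 1 each way. SRSF2, a splicing factor with a gene of 3.19 kb, measured 48.1, 46.8 and 37.4 CPM in cells and 234 CPM in nuclei (log2 fold change 2.28 ± 0.30, SE; edgeR adjusted p = 0.0258). DDX17, an RNA helicase, measured 192, 179 and 106 CPM against 671 CPM. On the lower side, SRRM2, a scaffold of splicing speckles, measured 63.4, 60.9 and 64.7 CPM against 13.3 CPM. None of the 12 long noncoding RNAs listed as retained in the nucleus was matched by symbol.

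Chromatin regulators and histones held 0.634%, 0.593% and 0.657% of UMIs in cells and 0.710% in nuclei, with 3 of 40 called higher and 4 lower, also near the shares of all genes. The histone variant genes were low in nuclei. H3F3A measured 1234, 1409 and 1272 CPM in cells and 37.5 CPM in nuclei (log2 fold change -5.25 ± 0.63, SE), and H2AFZ measured 229.9, 289 and 461 CPM against 6.15 CPM. ARID1B, a subunit of the BAF remodelling complex, measured 363, 359 and 309 CPM against 598 CPM and was not called. Without E70_3, 19 were called higher and 11 lower, and without E70_1 or E70_2 no gene of the list was called higher.

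Cell division genes held 0.0833%, 0.0937% and 0.122% of UMIs in cells and 0.0510% in nuclei, and of 25 tested 6 were called lower and 0 higher. UBE2C, a ubiquitin-conjugating enzyme of mitosis, had 0 UMIs in nuclei against 30.6, 54.0 and 61.1 CPM and was at least 31.5-fold lower at the floor of 3 UMIs. HMGB2, a chromatin protein of dividing cells, measured 117, 144 and 269 CPM against 1.94 CPM. TOP2A, which untangles DNA in mitosis, measured 50.1, 60.5 and 72.7 CPM against 15.9 CPM, and PCNA, the replication clamp, 96.2, 89.2 and 92.8 CPM against 64.1 CPM without a call. Over excitatory-like cells only, the log2 ratio of the list's share, nuclei over whole cells, was -0.12, against -0.96 over all cells. The library E70_3 held 7.91% intermediate progenitor-like cells, a name given to no cluster of the other 3 libraries. EOMES, a marker of that class, was nonetheless higher in E70_1 and E70_2, at 38.4 and 54.3 CPM, than in E70_3, at 10.1 CPM. Unnamed clusters with UBE2C and CENPF among their leading genes held 13, 82 and 100 cells of E70_1, E70_2 and E70_3, and E70_nc had no such cluster. The part of these cells in the values was not tested. With 1 whole-cell library left out, 2 to 9 of the genes were called lower.

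With all 3 whole-cell libraries in the fit, markers of cell types gave few calls, other than for microglia and endothelium. Of 12 microglial markers, 7 were called lower and 0 higher, and E70_nc lay below all 3 whole-cell libraries in 10 and above in 2. The complement genes fell in nuclei. C1QB measured 81.8, 71.5 and 71.5 CPM in cells and 5.83 CPM in nuclei (log2 fold change -3.81 ± 0.40, SE), and C1QC measured 28.4, 24.7 and 26.4 CPM and had 1 UMI in nuclei. CSF1R, the receptor microglia depend on, measured 26.0, 28.9 and 15.1 CPM against 1.29 CPM. The purinergic receptor gene P2RY12 lay on the other side, at 41.1, 34.9 and 43.7 CPM in cells and 73.5 CPM in nuclei (edgeR adjusted p = 0.149), as did the protease gene CTSS, at 41.4, 42.6 and 41.0 CPM against 60.2 CPM (edgeR adjusted p = 0.401). P2RY12 lies inside MED12L on the opposite strand, and MED12L itself was called higher, at 69.1, 61.4 and 63.1 CPM in cells and 226 CPM in nuclei. PTPRC, a phosphatase of all leukocytes, measured 34.4, 23.9 and 29.8 CPM against 16.5 CPM. No microglia-like cluster was found among the nuclei, as given above.

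Endothelial markers gave 4 of 7 called lower, among them PECAM1, at 83.1, 77.7 and 82.9 CPM in cells and 27.5 CPM in nuclei (log2 fold change -1.69 ± 0.33, SE; edgeR adjusted p = 0.0369). Endothelial-like cells took nearly the same share of cells and of nuclei, but not of UMIs, on which CPM rests. By UMIs they held 559979 of 5990119, 417699 of 6682505 and 1500924 of 26706367 in E70_1, E70_2 and E70_3, and 45848 of 3089188 in E70_nc. FLT1, a receptor of endothelial growth factor, measured 97.5, 83.4 and 76.5 CPM against 43.1 CPM and was not called. Without E70_2, 1 endothelial marker was called lower. Of 13 markers of astrocytes and radial glia, 2 were called lower (15.4%) and 0 higher, near the 11.6% and 3.77% of all genes. E70_nc lay below all 3 whole-cell libraries in 6 of them and above in 1. The share of such cells was 14.1% of nuclei and at most 9.27% of cells. Of UMIs, the class held 246519 of 5990119, 373353 of 6682505 and 2850218 of 26706367 in whole cells and 235414 of 3089188 in nuclei. By that measure the nuclei lay inside the whole-cell range. AQP4 and ALDH1L1, at 56.0 and 10.0 CPM in nuclei, lay inside the whole-cell ranges of 37.9 to 166 CPM and 5.28 to 13.4 CPM. VIM, an intermediate filament of radial glia, measured 254, 298 and 202 CPM against 11.0 CPM, and the transcription factor gene SOX2 measured 35.9, 39.5 and 44.7 CPM against 6.80 CPM. FABP7, a fatty acid binding protein of radial glia, measured 527, 573 and 1199 CPM against 86.1 CPM and was not called.

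Among interneuron markers, the enzymes and the transcription factor gene DLX1 lay on opposite sides. GAD1 and GAD2, which make GABA, measured 57.3 and 89.3 CPM in nuclei, above the whole-cell ranges of 16.9 to 30.4 CPM and 32.9 to 40.9 CPM, and neither was called (edgeR adjusted p = 0.147 and 0.0679). DLX1 measured 19.9, 27.4 and 20.7 CPM in cells and 2.91 CPM in nuclei and was called lower. Of 12 excitatory markers, 1 was called lower and 0 higher, with 5 below and 3 above all 3 whole-cell libraries. The called gene, FEZF2, a transcription factor of deep-layer neurons, measured 11.2, 6.29 and 16.6 CPM in cells and had 1 UMI in nuclei, and its call was lost without E70_2. SLC17A6, a vesicular glutamate transporter, measured 57.6, 66.1 and 55.3 CPM against 131 CPM (edgeR adjusted p = 0.0947). Markers of intermediate progenitors, Cajal-Retzius cells and erythroid cells, HBB itself being used by the cell filter, gave no call among the 4, 4 and 3 tested, nor did the 3 genes of myelin, 1 of photoreceptors and 3 of the male-specific region and X inactivation. Oligodendroglial markers gave 1 call of 6, OLIG1 being lower, and genes of regions outside the cortex 1 of 10, ZIC2 being lower. Among 10 mural and fibroblast markers DCN was higher and PDGFRB lower, and among 3 of choroid plexus and ependyma KCNJ13 was higher and FOLR1 lower. With a library left out these counts moved. In each such fit 1 erythroid marker was called lower, and 1 intermediate progenitor marker was lower without E70_1. Interneuron markers gave 3 lower without E70_1 and 0 without E70_2, and excitatory markers 1 and 0, with 0 higher. Without E70_3, higher and lower counts were 4 and 5 of 9 interneuron markers and 4 and 4 of 12 excitatory markers. Of intermediate progenitor markers 1 was higher and 2 lower in that fit. It also called 2 male-specific and X inactivation genes higher, and 3445 higher and 4111 lower of all 13150 genes tested.

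Gene length went with the direction of the difference. Lengths in RefSeq were matched by symbol for 10974 genes, 83.5% of those tested, and include introns. In the shortest quintile (the shortest 20% of these genes), up to 13.7 kb, 864 genes (39.4%) were called lower and 11 (0.501%) higher, with a median log2 fold change of -2.50. The medians of the next 3 quintiles were -0.83, -0.16 and 0.20. In the longest quintile, from 115 kb, 11 genes (0.501%) were called lower and 219 (9.98%) higher, with a median of 0.52. Against E70_1, E70_2 and E70_3 singly, the median log2 ratio, with nuclei below 3 UMIs set to 3 UMIs, was -2.14, -2.24 and -2.37 in the shortest quintile and 0.49, 0.73 and 0.95 in the longest. The order of the quintiles was thus the same against every whole-cell library. Genes called higher had a median length of 136 kb and genes called lower a median of 8.23 kb.

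**Figure D3:**
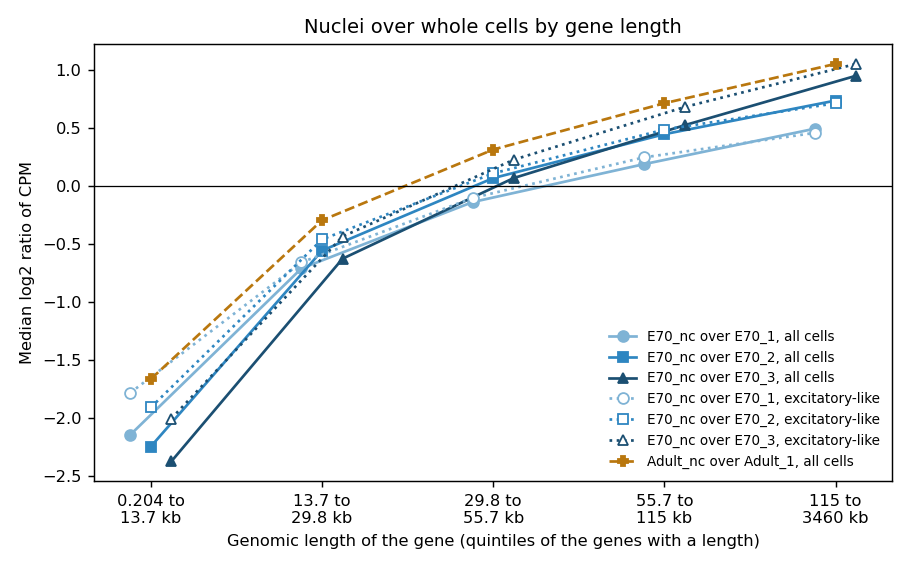
Median log2 ratio of CPM by quintile of genomic gene length, for E70_nc over each whole-cell library (solid lines all cells, dotted lines excitatory-like cells) and for the adult pair (dashed line), without TMM scaling. Every line climbs from left to right, from -2.14, -2.24 and -2.37 to 0.49, 0.73 and 0.95 over all cells and from -1.66 to 1.05 in the adult.

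Base composition moved with length and with the difference. Genes called higher had a median GC content of 38.3%, genes called lower 54.9% and all genes tested 44.4%. Across 10974 genes, which share the same 4 libraries and are not independent replicates, the Spearman correlation of the log2 ratio was 0.625 with length and -0.581 with GC content, and that of length with GC content was -0.455. Within the shortest quintile split into 3 equal groups by GC content, the median log2 ratio went from -1.30 at the lowest GC content to -3.17 at the highest. Within the longest quintile it went from 1.10 to 0.14. The direction with GC content therefore held within each of these quintiles. They still span 0.204 to 13.7 kb and 115 to 3459.9 kb, and length was not matched between the groups. The 54 genes with a single exon had a median log2 ratio of -3.35, with 25 called lower and 0 higher. Of these, 13 were the mitochondrially encoded genes, and the other 41 had a median of -2.50, with 13 called lower and 0 higher.

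Some genes went against their length. Among the 4372 tested genes of the 2 shortest quintiles, 35 were called higher, and 6 of these (17.1%) lay inside another protein-coding gene on the opposite strand, against 2.56% of all tested genes of these quintiles lying inside another gene on either strand. These 6, named after their values were seen, were GPR171 in MED12L, HTR2B in PSMD1, KCNJ13 in GIGYF2, ANGPTL1 in RALGPS2, SULT6B1 in CEBPZOS and EVI2A in NF1. GPR171, an orphan receptor next to P2RY12, measured 3.34, 4.34 and 4.64 CPM in cells and 43.4 CPM in nuclei, and KCNJ13, a potassium channel, measured 105, 85.0 and 74.7 CPM against 265 CPM. Whether counting used the strand is not given in the sources used here, and reads of a gene inside another one cannot be told apart from its host's without strand. The same limit holds for HSP70.2, which lies inside HSPA1L on the opposite strand, and for PPWD1, EIF3G, MDK, CFL1, RPL7A, PPIB and SRSF2, which overlap a neighbour on the opposite strand. TUBB2B, ATP6 and COX3 overlap a neighbour on the same strand. In the longest quintile, 11 genes were called lower, among them OSBPL10, an oxysterol binding protein, at 761, 733 and 742 CPM in cells and 155 CPM in nuclei, and FOXJ3, a forkhead transcription factor, at 1017, 1256 and 1705 CPM against 163 CPM.

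The length pattern was seen in single cells and nuclei. Genes of the longest quintile took a median of 34.9%, 32.6% and 26.9% of the UMIs of a cell in E70_1, E70_2 and E70_3, and 53.1% of the UMIs of a nucleus. The middle 80% of nuclei lay between 48.7% and 56.6%. Of the whole cells, 1 of 456, 3 of 586 and 0 of 3009 exceeded 48.7%, the lower end of that range. The shortest quintile took a median of 16.7%, 19.7% and 26.2% per cell and 4.13% per nucleus. Cells and nuclei of each library are not replicates, and this is a description of 4 libraries.

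**Figure D4:**
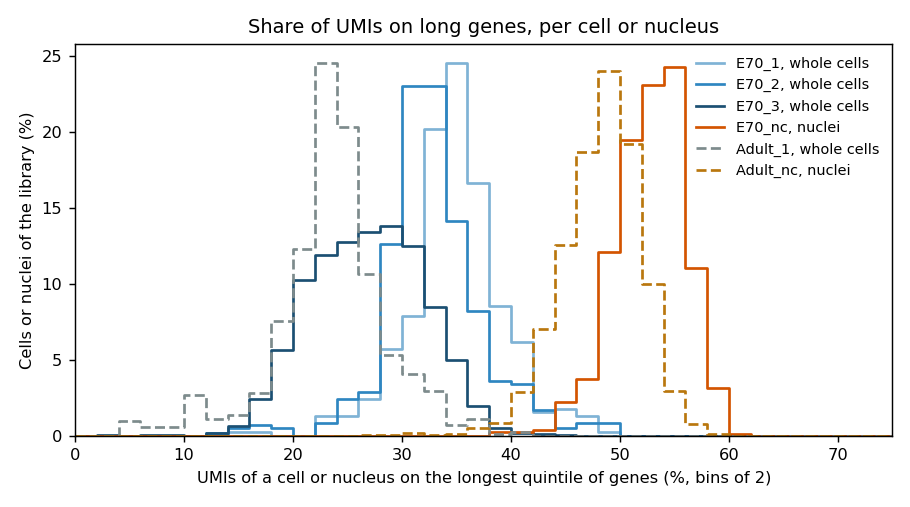
Distribution over cells of the percentage of UMIs in genes of the longest quintile, as the percentage of cells of each library in each bin, for the E70 libraries (solid lines) and the adult pair (dashed lines). The medians are 34.9%, 32.6%, 26.9% and 53.1% for E70_1, E70_2, E70_3 and E70_nc, and 23.8% and 48.6% for Adult_1 and Adult_nc.

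The same shares were compared within classes of cells, since the libraries differed in makeup. In excitatory-like cells the longest quintile took 35.0%, 32.8% and 25.5% of UMIs in whole cells and 52.3% in nuclei. In interneuron-like cells it took 35.0%, 34.3% and 29.5% against 53.4%, and in astrocyte and radial glia-like cells 33.2%, 32.9% and 24.6% against 53.8%. In endothelial-like cells, of which the nuclei had 17, it took 31.6%, 30.5% and 26.2% against 48.1%. Nuclei exceeded all 3 whole-cell libraries in each of these 4 classes.

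Within excitatory-like cells alone, 60 of 12702 genes (0.472%) were called higher and 348 (2.74%) lower. No gene was called without E70_1, 66 were called higher and 930 lower without E70_2, and 2960 and 3512 without E70_3. In that fit without E70_1, 2687 genes had an unadjusted p under 0.05 in edgeR, and the lowest adjusted p was 0.0885. Outside the whole-cell range at any distance were 4496 genes (35.4%) above and 4512 (35.5%) below. Of the 495 genes called higher over all cells that could be tested here, 495 lay above all 3 whole-cell libraries and 57 were called again. Of 1385 called lower, 1379 lay below all 3 and 344 were called again. The sums over all cells hold these excitatory-like cells, so the values are not independent of those over all cells.

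Single genes can be followed across classes, although the genes were chosen on sums that include these cells. The 12 highest genes lay above all 3 whole-cell libraries in the excitatory-, interneuron- and astrocyte and radial glia-like classes. The 12 lowest lay below in the first and the last of these classes, and 11 did so in interneuron-like cells, where MDK was inside the range because E70_1 had no UMI. PPWD1 measured 261 CPM in excitatory-like, 316 CPM in interneuron-like and 297 CPM in astrocyte and radial glia-like nuclei, and at most 16.1 CPM in whole cells of any of these classes. TRPS1 differed by class, at 1654 CPM in excitatory-like nuclei against 63.2, 42.7 and 42.1 CPM in cells, and at 261 CPM in interneuron-like nuclei against 30.3, 53.1 and 90.4 CPM. KCNC2 in interneuron-like cells measured 713, 303 and 378 CPM in whole cells and 2008 CPM in nuclei. CKB, which is abundant in astrocytes, measured 839.7, 1049.9 and 715 CPM in astrocyte and radial glia-like whole cells and had no UMI in nuclei of that class.

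**Figure D5:**
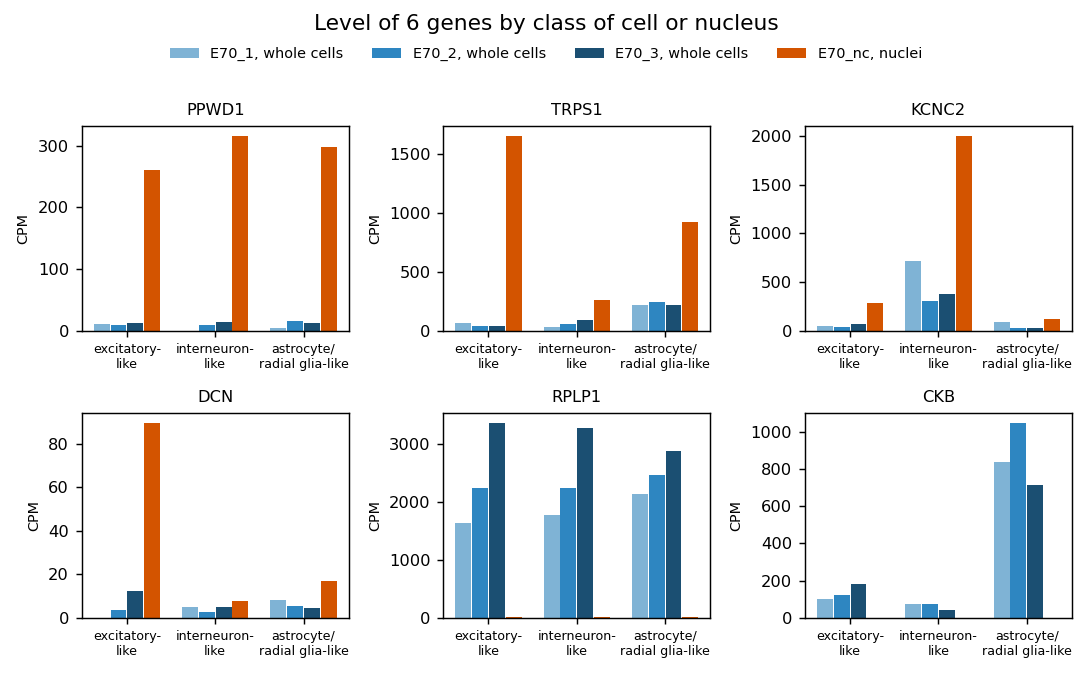
Level of 6 named genes within 3 classes of cells, in CPM on linear axes that start at 0, with 1 bar per library (blue for the whole-cell libraries, orange for nuclei). TRPS1 stands at 1654 CPM in excitatory-like nuclei and at 261 CPM in interneuron-like nuclei, above the whole cells of either class, while RPLP1 and CKB have almost no bar in nuclei.

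The adult pair gives the same contrast in other animals. Adult_nc held 2552 nuclei with 2336865 UMIs and Adult_1 714 whole cells with 7071944 UMIs, and both nuclei libraries were sequenced in pool 5. With 1 library each there is no test, and genes were counted where the exact Poisson 95% intervals were apart. By that count 5335 of 13146 genes (40.6%) were higher in adult nuclei and 3905 (29.7%) lower. Of the 496 genes called higher at E70, 470 (94.8%) were higher in adult nuclei and 5 lower, and of the 1525 called lower, 1387 (91.0%) were lower and 12 higher. Both shares stood above those over all genes.

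The main lists can be followed in the adult pair. Mitochondrially encoded subunits took 2.75% of UMIs in adult cells and 0.0875% in adult nuclei, heat shock genes 2.43% and 0.198%, immediate early genes 0.523% and 0.0416%, and ribosomal proteins 4.64% and 0.420%. Adhesion and guidance genes took 0.664% and 1.94%, and of the 67 tested 62 were higher in adult nuclei and 1 lower. Of 25 cell division genes 13 were higher in adult nuclei and 2 lower by counting intervals, as were 40.6% and 29.7% of all genes. Their share of UMIs was 0.0552% in adult cells and 0.103% in adult nuclei, whereas at E70 it was lower in nuclei than in cells. By share of UMIs, markers of choroid plexus and ependyma and of oligodendroglia also lay on opposite sides at E70 and in the adult. KCNJ13 gave 265 of the 287 CPM of the choroid plexus and ependyma list in E70 nuclei, and 492 of 523 CPM in adult nuclei. That gene itself was higher in nuclei at both stages, at 116 CPM in adult cells. The longest quintile of genes took 24.1% of UMIs in adult cells and 48.8% in adult nuclei, and the shortest 24.0% and 4.22%.

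The difference of the nuclei effect between stages was tested as an interaction of fraction and stage. No gene passed (edgeR, 0 calls and a lowest adjusted p of 0.644), and 826 genes had an unadjusted p under 0.05. On total UMIs 0 genes passed and 932 had an unadjusted p under 0.05. The test had 2 residual degrees of freedom, so the absence of calls does not show that the stages are alike.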

How the data were processed

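UMIs were counted by the authors with Cell Ranger (version 2.20 in the submitters' processing notes) on Sscrofa11.1 with Ensembl genes and introns included, and the deposited matrices hold raw counts per gene and cell for 22452 genes. Cells with HBB under 5% of UMIs were kept and summed per library. Genes with a mean CPM of at least 5 were tested (13146 of the 18753 with a UMI). The share of UMIs of a list was taken over all its members in the matrices, tested or not. The test was edgeR 4.0.16 (R 4.3.3, TMM factors, quasi-likelihood, Benjamini-Hochberg over all genes), and a call also required a CPM in E70_nc outside the whole-cell range. With 1 library against 3, an exact permutation test cannot go below p = 0.25. The test was checked on simulated data. Alternatives were total UMIs, DESeq2 1.42.0, other filters on genes and cells, left-out genes or libraries, and the adult pair as added libraries.

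Cells were clustered per library with scanpy 1.11.5 (2000 variable genes, 30 principal components, Leiden resolution 1). A total of 987 Ensembl identifiers were given symbols from RefSeq, which also gave gene positions, and 292 of the 2021 called genes had no symbol. The genes named are the 12 called genes highest and the 12 lowest against the nearest whole-cell library (mean CPM of at least 20, levels below 3 UMIs set to 3 UMIs), the 4 most abundant and up to 3 called members of each list, and the cell type markers. Ratios to 1 to 3 UMIs carry exact counting intervals at 95%, and genes at 0 are bounded at a floor of 3 UMIs. The comparison, its lists and markers were chosen with earlier results of these data known. The labels give 2 brains for E70_1 and 1 for E70_3, and another source of the study gives other numbers. A few of the genes this rule takes in are not reported here.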

Additional observations from a re-analysis of the deposited data

Results flagged for a closer look

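DCN and TOP2A, both named above, lay on opposite sides at the 2 stages. DCN, a matrix proteoglycan, was called higher in nuclei at E70 and measured 56.8 CPM in adult whole cells and 31.7 CPM in adult nuclei, with counting intervals apart. The interaction of fraction and stage was -4.59 on the log2 scale (edgeR, unadjusted p = 0.00404, adjusted p = 0.644). TOP2A, a topoisomerase of dividing cells, was called lower in nuclei at E70 and measured 8.06 CPM in adult whole cells and 18.8 CPM in adult nuclei. Its interaction was 2.84 (edgeR, unadjusted p = 0.00824, adjusted p = 0.687). Neither difference passed the correction over all genes, and each adult value comes from 1 library.

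Of all 2021 genes called at E70, 17 lay on the opposite side in the adult pair with intervals apart, 5 of them higher at E70 (DCN, EVI2A, MAP6D1, NPTN and WDR49) and 12 lower.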

How the results depend on the processing

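No paired analysis was possible because the labels give E70_nc no replicate number and there is 1 nuclei library. Counts of genes called moved with the fit and no call changed direction. Higher and lower counts were 1088 and 2179 with DESeq2, 871 and 1406 with mitochondrial and ribosomal protein genes left out, 1904 and 2434 with the adult pair added, and 60 and 348 in excitatory-like clusters. The share of calls that were higher was 24.5%, against 33.3%, 38.3%, 43.9% and 14.7% in these fits in order. With 1 whole-cell library left out, the counts were 41 to 3445 higher and 683 to 4111 lower, and in excitatory-like clusters 0 to 2960 and 0 to 3512. Excitatory-like counts on total UMIs were 244 and 771. With a distance of 2-fold required, 1238 genes lay above the whole-cell range with intervals apart, against 2944.

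Log2 ratios of list shares, nuclei over whole cells, moved beyond the whole-cell spread in excitatory-like clusters for immediate early genes (-0.93), synaptic scaffolds (1.40 from 1.52), RNA binding proteins (0.87 from 0.97, and 1.02 with all cells) and cell division genes (-0.12). The median of the shortest quintile, -2.50, was -2.36 on total UMIs and in excitatory-like clusters, -2.77 at a mean CPM of at least 20, and -2.49 to -2.13 with a library left out. A total of 5 named genes changed sign and were called in at least 1 of the fits compared. C1QB was 0.79 in excitatory-like clusters, and without E70_3 EIF1AY was 1.73, HES1 0.97, NEUROD6 1.02 and SST 2.33, while their lowest values with another library left out were -0.40, -0.30, -0.73 and -1.07. Of 93 named genes called, 93 kept the call with DESeq2, 91 on total UMIs, 81 without E70_1, 60 without E70_2 and 92 without E70_3, and in excitatory-like clusters 27 kept it, 49 lost it and 1 changed sign. The cause of these changes was not tested. With 3089188 UMIs in nuclei, 197 tested genes had none there, and a level under 0.971 CPM could not be told from 0.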

Other observations

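Mitochondrial RNA was not spread evenly over the nuclei. Of 858 nuclei, 12 held over 0.5% mitochondrially encoded UMIs, of which 10 were among the 17 endothelial-like nuclei and 2 among the 121 astrocyte and radial glia-like nuclei. The 17 endothelial-like nuclei held 426 of the 1955 mitochondrial UMIs of the library, with a median of 0.805% per nucleus and a range of 0% to 2.23%. COX1 is among the leading genes of that cluster, so its level there is a description and no test.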
